A study of Mus musculus with 27 samples.

Results

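The BTG/TOB genes encode a small family of antiproliferative proteins, and 5 of them were looked for here: Btg1, Btg2, Btg3, Tob1 and Tob2. The probe sets were chosen by the annotation, which had to assign them to 1 symbol alone, and, between several for a gene, on the highest mean over the 27 arrays. Btg1, Btg2, Tob1 and Tob2 each had 1 such probe set, so the level decided no choice. Their means over all arrays were 12.33, 9.93, 11.71 and 7.70 on the log2 scale of the array signal, in that order, and all 4 lay above the array median on 27 of 27 arrays. The 2 probe sets that list Btg3 also list the pseudogene Gm7334, so Btg3 has no value of its own and 4 members remain among 19938 genes measured. The family was picked with results of these data known, the rise of Btg2 among them, so its values are no independent evidence that the family responds.

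The study compared acetaminophen (APAP) with its regioisomer AMAP, in which the ring hydroxyl sits in the meta instead of the para position, in TAMH cells, a line of hepatocytes from mice that carry a transgene for transforming growth factor alpha. Confluent cultures received APAP at 2 mM, AMAP at 2 mM or control medium for 2, 6 or 24 h, which gives 9 groups of 3 arrays each. All groups, controls included, were kept without serum and with dexamethasone, nicotinamide, insulin, transferrin and selenium, and all cells are from this 1 line. The 3 arrays of each group carry the numbers 30, 31 and 32, and the labels do not say whether these are separate cultures, so the p-values measure the spread between these arrays, which may be technical.

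BTG and TOB proteins share an amino-terminal domain that binds the CNOT7 and CNOT8 deadenylases of the CCR4-NOT complex, the enzymes that shorten the poly(A) tails of mRNAs, and through it they speed up mRNA decay. The TOB proteins also bind the cytoplasmic poly(A)-binding protein, which brings the deadenylase to the tail. Btg2 is a textbook target of the tumour suppressor p53 and an early gene of growth and stress signalling, Btg1 is abundant in resting cells, and Tob1 restrains entry into the cell cycle until it is phosphorylated by ERK kinases. Forced expression of family members slows growth in many cell types.

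For each of the 4 genes, the 250 bases before the start used in the RefSeq promoter table are given because Btg2 and Tob1 rose together with APAP, while Btg1 and Tob2 did not pass the test. They are RefSeq sequences of mouse build GRCm38.p6, 5′ to 3′ on the strand of the gene, and capitals mark the half-site of the cyclic AMP response element (CRE, letters TGACG on either strand). The stretches are chr1:134079156-134079405 on the minus strand for Btg2, chr11:94211204-94211453 on the plus strand for Tob1, chr10:96616751-96617000 on the plus strand for Btg1 and chr15:81858327-81858576 on the minus strand for Tob2. For Btg2, Btg1 and Tob2 that start is also the outer end of the annotated gene. For Tob1 it lies 1612 bases inside the annotated gene (94209842 to 94215495), so its stretch lies within the gene.
Btg2: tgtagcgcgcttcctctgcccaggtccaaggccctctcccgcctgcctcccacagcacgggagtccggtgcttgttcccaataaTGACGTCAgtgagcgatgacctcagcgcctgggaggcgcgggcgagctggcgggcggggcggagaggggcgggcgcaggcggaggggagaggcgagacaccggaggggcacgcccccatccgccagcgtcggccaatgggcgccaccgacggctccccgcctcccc
Tob1: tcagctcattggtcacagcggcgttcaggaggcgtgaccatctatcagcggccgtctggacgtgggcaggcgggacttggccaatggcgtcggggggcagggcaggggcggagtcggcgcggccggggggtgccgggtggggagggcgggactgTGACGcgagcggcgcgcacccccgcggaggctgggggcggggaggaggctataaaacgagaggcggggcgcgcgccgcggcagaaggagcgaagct
Btg1: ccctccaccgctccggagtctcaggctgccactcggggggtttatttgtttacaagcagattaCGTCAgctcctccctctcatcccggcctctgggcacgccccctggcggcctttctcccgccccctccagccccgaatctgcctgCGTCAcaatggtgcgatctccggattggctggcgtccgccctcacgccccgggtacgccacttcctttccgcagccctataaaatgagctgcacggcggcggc
Tob2: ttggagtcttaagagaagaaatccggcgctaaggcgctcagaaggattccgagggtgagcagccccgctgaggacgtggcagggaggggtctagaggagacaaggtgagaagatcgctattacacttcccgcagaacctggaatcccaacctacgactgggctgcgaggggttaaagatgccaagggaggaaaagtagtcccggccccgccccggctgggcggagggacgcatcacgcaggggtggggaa
In Btg2 the 2 half-sites overlap and form the full element TGACGTCA, which begins 166 bases before the start. All distances here are from the start just defined, for Tob1 the internal one. A full element was found in 1.55% of 32851 promoter stretches of this length, and a half-site in 17.8%. Tob1 held 1 half-site at 96 bases, Btg1 held 2 at 187 and 103 bases, and none was found in the Tob2 stretch. A CCAAT box (letters CCAAT on either strand, found in 33.8% of stretches) stood at 173 and 34 bases in Btg2, at 243 and 170 bases in Tob1 and at 80 bases in Btg1. A TATA box (letters TATAA on either strand, found in 22.8%) began at 47 bases in Tob1 and at 26 bases in Btg1, and none was found in Btg2 or Tob2. The p53 decamer, searched on both strands without mismatches and found in 7.13% of stretches, was in none of these 4 windows. Guanine and cytosine made up 73.2% of the Btg2 stretch, 73.6% of Tob1, 65.2% of Btg1 and 60.4% of Tob2, against a median of 52.4%. These are matches of letters, and factor binding was not measured.

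Values below are the deposited log2 RMA values, in which 1 unit is a doubling, and differences are between group means, with the standard error (SE) or 95% interval of the limma model over all genes and p-values adjusted over all 19938 genes. Array medians lay between 6.92 and 7.07 and the correlation of replicate arrays over genes, which are no independent replicates, was 0.992 to 0.997. APAP array 31 at 24 h lay farthest out on the first principal component, which held 22.4% of the variance, and results that depend on single arrays are given with and without them. In the controls, 9 of 9 hepatocyte markers (Alb highest, at 13.68), 3 of 4 biliary, 5 of 8 fibroblast, 2 of 6 macrophage and 0 of 5 endothelial markers had mean values above the highest array median. Of these markers, Sox9 (-0.35 ± 0.11) and Vim (-0.24 ± 0.07) fell with APAP at 24 h and Cd14 fell at 6 h with APAP (-0.40 ± 0.08) and with AMAP (-0.34 ± 0.08), values with the SE. Leaving out each of the 6 arrays compared in turn, these calls held in 2, 1, 6 and 0 of 6 cases, in the order given. Without all arrays of 1 number they held in 0, 0, 1 and 0 of 3 cases. Sox9 was also lower with APAP than with AMAP at 24 h (-0.47 ± 0.11, SE). That call held in 3 of 6 single-array cases and without 1 of the 3 numbers. At 24 h the 4 biliary markers had a median difference from control of -0.51 with APAP and -0.65 with AMAP, and 0 of the 9 hepatocyte markers were called by limma in comparisons with control (up to 1 at an unadjusted p under 0.05). The part of these markers in the results below was not tested, and in RNA from whole cultures fewer cells of a type and less RNA per cell cannot be told apart.

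Btg2 was the member that separated APAP from both AMAP and control. At 2 h its values were 10.55, 10.89 and 10.83 with APAP, 9.44, 9.92 and 9.48 with AMAP, and 9.26, 9.59 and 9.30 in control cultures, in the order of array numbers 30, 31 and 32. At 6 h they were 10.46, 10.44 and 10.65 with APAP, 9.64, 9.51 and 9.50 with AMAP, and 9.51, 9.62 and 9.42 in control cultures. At 24 h they were 10.62, 10.97 and 11.00 with APAP, 9.51, 9.75 and 9.68 with AMAP, and 9.48, 9.46 and 9.57 in control cultures. All 9 APAP arrays lay above all 18 other arrays, whereas AMAP and control arrays overlapped at each time.

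Against control, Btg2 was 2.60-fold higher with APAP at 2 h (95% interval 2.18 to 3.09), 2.00-fold at 6 h (1.68 to 2.38) and 2.57-fold at 24 h (2.16 to 3.06). The adjusted p-values of limma were 1.19e-07, 2.33e-05 and 9.94e-08, and the difference was the third largest increase of all genes at 2 h, the 12th at 6 h and the 8th at 24 h. Within array numbers, the log2 difference was 1.29, 1.30 and 1.54 at 2 h, 0.95, 0.82 and 1.23 at 6 h and 1.14, 1.52 and 1.43 at 24 h for numbers 30, 31 and 32. It was positive in each of the 9 pairs, as the plot of differences within array numbers shows. This follows from all APAP arrays lying above all control arrays. At 24 h the numbers did not pair APAP with control arrays by the criterion given below.

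The Btg2 difference between APAP and control was smallest at 6 h, and no difference between times passed the test. The effect of APAP at 6 h was 0.38 lower than at 2 h on the log2 scale (95% interval of the difference -0.73 to -0.02, adjusted p = 0.9998) and the effect at 24 h was 0.36 higher than at 6 h (0.01 to 0.72, adjusted p = 0.689). Effects at 24 h and 2 h differed by -0.01 (-0.37 to 0.34). Limma called 0 of the 4 members in any of these 3 comparisons between times, against 0, 0.01 and 0.356% of all genes, and at an unadjusted p under 0.05 it was Btg2 alone, in the first and the second.

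**Figure D1:**
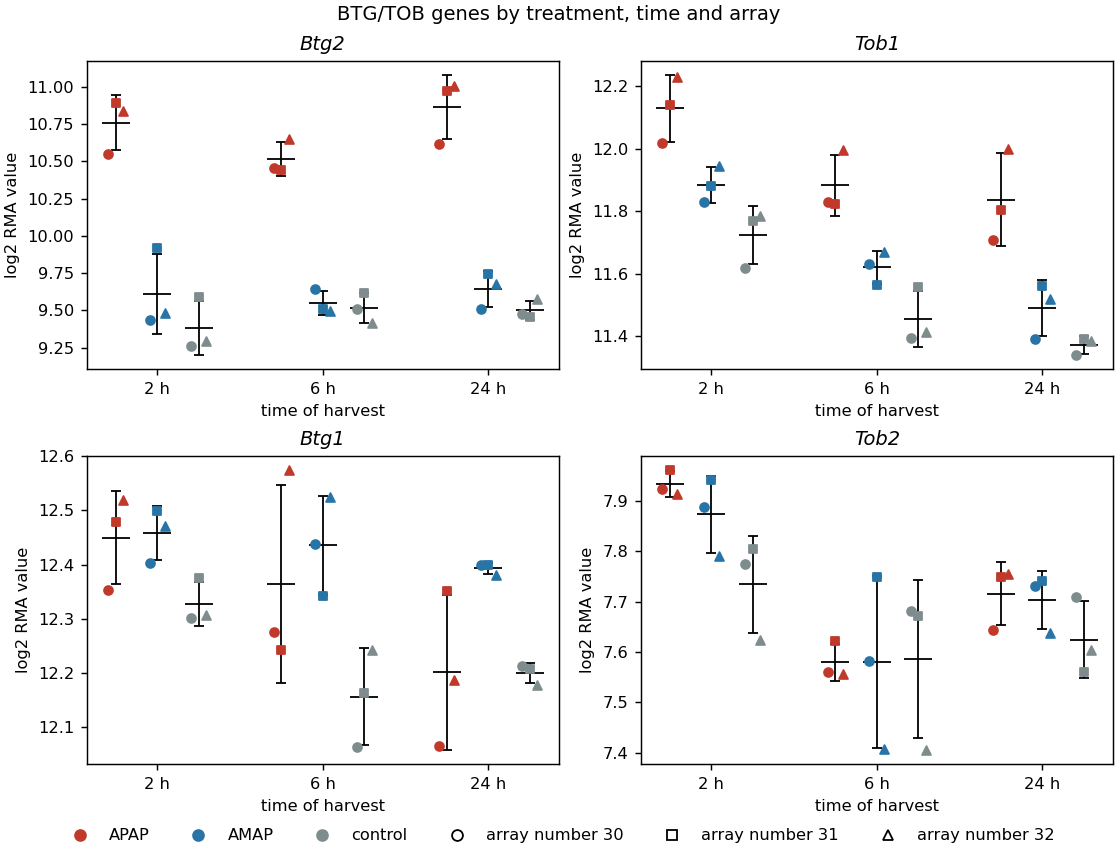
Deposited log2 values (y axis) of Btg2, Tob1, Btg1 and Tob2 by time of harvest (x axis), with APAP, AMAP and control side by side at each time, a symbol for each array and its number, and the mean ± SD of the 3 arrays as bars. Btg2 with APAP lies at 10.44 or higher on all 9 arrays and at 9.92 or lower on all others, and each panel has its own y range.

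Tob1 also rose with APAP, by less than Btg2, and in control cultures its level was lower at 24 h than at 2 h. At 2 h its values were 12.02, 12.14 and 12.23 with APAP, 11.83, 11.88 and 11.94 with AMAP, and 11.62, 11.77 and 11.79 in control cultures. At 6 h they were 11.83, 11.82 and 12.00 with APAP, 11.63, 11.56 and 11.67 with AMAP, and 11.39, 11.56 and 11.41 in control cultures. At 24 h they were 11.71, 11.80 and 12.00 with APAP, 11.39, 11.56 and 11.52 with AMAP, and 11.34, 11.39 and 11.39 in control cultures. At each time all 3 APAP arrays lay above all 3 AMAP arrays, and all 3 AMAP arrays lay above all 3 control arrays. The margin between AMAP and control was smallest at 24 h, where the lowest AMAP array (11.3923) and the highest control array (11.3922) were nearly equal. At 6 h these arrays lay at 11.564 and 11.558.

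Against control, Tob1 was 1.32-fold higher with APAP at 2 h (95% interval 1.18 to 1.49, limma adjusted p = 0.0097), 1.34-fold at 6 h (1.20 to 1.51, adjusted p = 0.0035) and 1.38-fold at 24 h (1.23 to 1.55, adjusted p = 5.87e-04). The log2 differences of 0.41, 0.43 and 0.46 had SE 0.08 and lay below the intervals of the Btg2 differences at the same times, and they changed little between times (24 h minus 2 h 0.06, 95% interval -0.18 to 0.30). The call at 2 h was lost without APAP array 31 (adjusted p = 0.0603), without APAP array 32 (adjusted p = 0.0839) and without control array 30 (adjusted p = 0.0902), and in the 6 arrays fitted alone (adjusted p = 0.0921). It was also lost without all arrays of number 30, 31 or 32 (adjusted p = 0.243, 0.249 and 0.115). At 6 h the call held without each single array and was lost without number 30, 31 or 32 (adjusted p = 0.114, 0.0527 and 0.0886), whereas at 24 h it held without each single array and each number.

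Of the 4 members, 2 were called higher with APAP than in control cultures at each of the 3 times, Btg2 and Tob1, and neither of the others was called. Over all genes the percentage called higher was 0.311 at 2 h, 1.05 at 6 h and 3.36 at 24 h. Arrays with APAP lay wholly above control for 3, 3 and 2 members, against 9.46, 7.71 and 13.3% of all genes. Of all genes, 31 were called higher at all 3 times, that is 0.155%. The median log2 difference of the 4 members was 0.30, 0.32 and 0.28 at 2, 6 and 24 h, against 0.01, 0.00 and 0.02 over all genes.

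**Figure D2:**
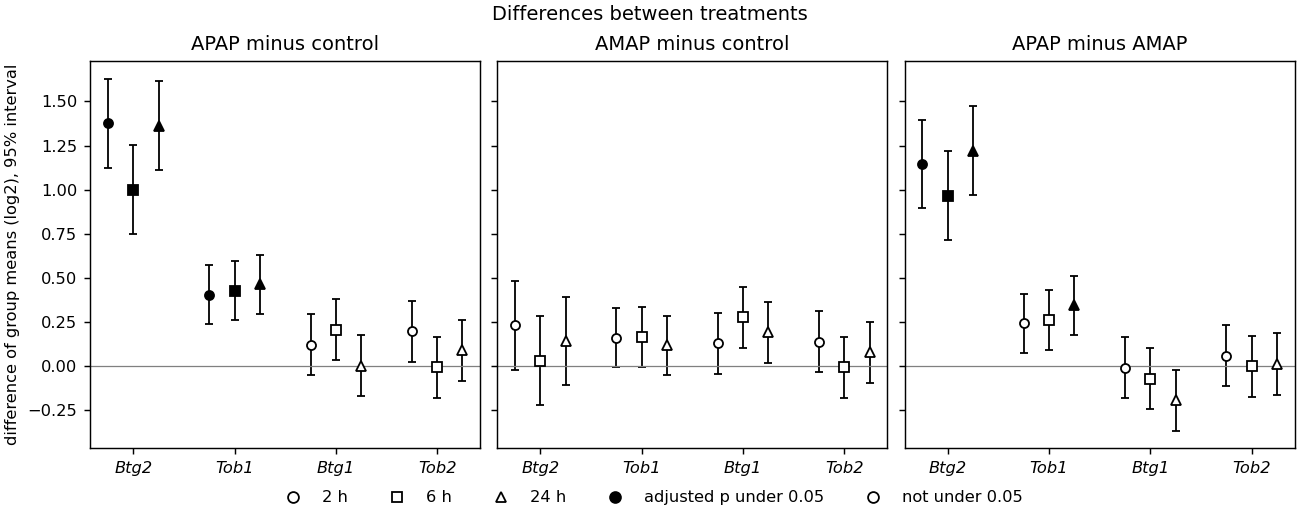
Differences of group means on the log2 scale (y axis) with 95% intervals of the limma model, for APAP minus control, AMAP minus control and APAP minus AMAP, by member (x axis) and time (symbol). Filled symbols have an adjusted p under 0.05: Btg2 and Tob1 with APAP against control at each time, Btg2 against AMAP at each time and Tob1 against AMAP at 24 h.

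The isomers were given at the same dose for the same times, so 3 matched pairs of groups could be compared. Btg2 was higher with APAP than with AMAP by 2.21-fold at 2 h (95% interval 1.86 to 2.63), 1.95-fold at 6 h (1.64 to 2.33) and 2.33-fold at 24 h (1.96 to 2.77), with limma adjusted p-values of 3.48e-06, 8.87e-05 and 4.16e-07. Over all genes the percentage called higher with APAP than with AMAP was 0.0953 at 2 h, 0.476 at 6 h and 1.87 at 24 h. Btg2 was among 7 genes (0.0351%) called higher with APAP against both AMAP and control at all 3 times, and the other 6, listed after their values were seen, were Atf3, Ddias, Inka2, Jun, Mdm2 and Slc19a2. Those comparisons share the APAP arrays. Against AMAP alone, 0.0451% of genes were called higher at all 3 times. Arrays with APAP lay wholly above AMAP for 2 members at each time, Btg2 and Tob1, against 9.7, 5.09 and 12.3% of all genes.

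Tob1 passed the test between the isomers at 24 h only. There it was 1.27-fold higher with APAP than with AMAP (95% interval 1.13 to 1.43, limma adjusted p = 0.0121), and the call was lost without AMAP array 30 (adjusted p = 0.0844), without APAP array 32 (adjusted p = 0.0892), without number 30, 31 or 32 (adjusted p = 0.148, 0.0951 and 0.144) and in the 6 arrays fitted alone (adjusted p = 0.131). At 2 h the log2 difference was 0.24 (0.08 to 0.41, adjusted p = 0.3205) and at 6 h it was 0.26 (0.09 to 0.43, adjusted p = 0.2207). Whether the difference between isomers was larger at 24 h than earlier was not tested.

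AMAP against control gave 0 of 4 members called by limma at any time, with 0, 1 and 1 members at an unadjusted p under 0.05 at 2, 6 and 24 h. Over all genes 0.181, 0.456 and 0.727% were called in either direction, and these comparisons share their control arrays with those of APAP. For Btg2 the log2 difference was 0.23 at 2 h (95% interval -0.02 to 0.48), 0.03 at 6 h (-0.22 to 0.28) and 0.14 at 24 h (-0.11 to 0.39), so the intervals leave room for a rise of up to 1.40-fold at 2 h. The 2 h difference was 0.08 without AMAP array 31 and 0.34 without control array 31. Tob1 differed by 0.16 (-0.01 to 0.33), 0.17 (-0.0018 to 0.33) and 0.12 (-0.05 to 0.29). Within array numbers the Tob1 difference lay between 0.01 and 0.25. That it was positive in 9 of 9 pairs follows from the AMAP arrays lying above the control arrays, so it adds no support. The Btg2 difference was positive in 8 of 9 pairs. At 2 h and 24 h the numbers did not pair AMAP with control arrays by the criterion given below.

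**Figure D3:**
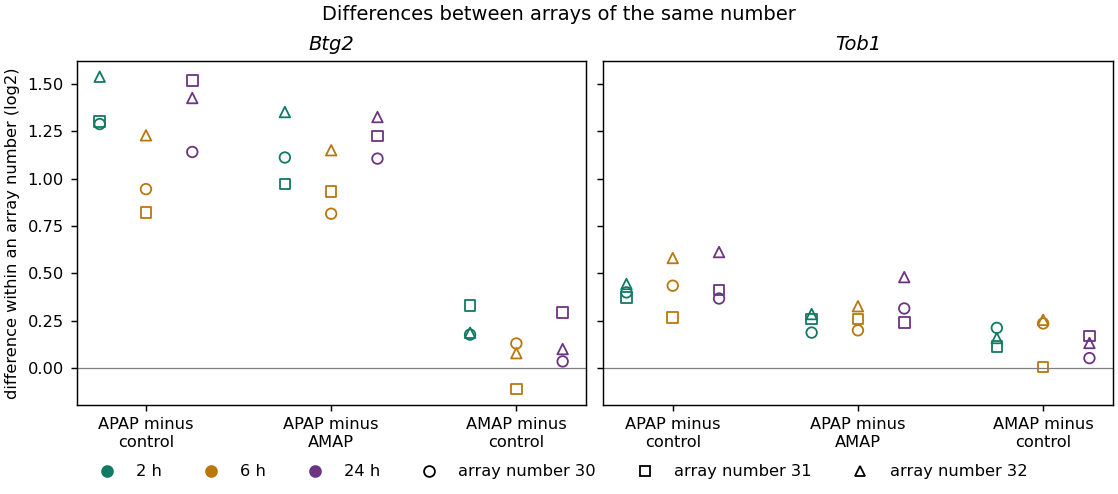
Log2 differences between 2 arrays that carry the same number (y axis) for Btg2 and Tob1, by comparison (x axis) and time (colour), with a symbol for each array number. For Btg2 the 9 differences of APAP from control lie between 0.82 and 1.54 and those of AMAP from control between -0.11 and 0.33.

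Btg1, the member with the closest sequence kinship to Btg2, did not pass the test in any comparison of treatments, and its arrays followed another order. At 6 h its values were 12.28, 12.24 and 12.57 with APAP, 12.44, 12.34 and 12.53 with AMAP, and 12.06, 12.16 and 12.24 in control cultures. All 3 AMAP arrays lay above all 3 control arrays at 6 h, with a log2 difference of 0.28 (95% interval 0.11 to 0.45, limma adjusted p = 0.1773). The same held at 2 h (0.13, -0.04 to 0.30) and at 24 h (0.19, 0.02 to 0.37). Arrays of 2 members, Btg1 and Tob1, thus lay wholly above control with AMAP at each time, against 4.51, 6.51 and 8.71% of all genes at 2, 6 and 24 h. For Tob1 at 24 h the nearest arrays were all but equal (11.3923 and 11.3922).

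At 24 h Btg1 had values of 12.07, 12.35 and 12.19 with APAP, below all 3 AMAP arrays at 12.40, 12.40 and 12.38. Arrays with APAP lay wholly below AMAP for this 1 member, against 10.1% of all genes. The difference of APAP from AMAP was -0.19 on the log2 scale (95% interval -0.36 to -0.02, limma adjusted p = 0.2077). Against control arrays at 12.21, 12.21 and 12.18 the difference of APAP was 0.00 (-0.17 to 0.17). Btg1 was thus the member for which APAP was not the highest group at 24 h, whereas Btg2, Tob1 and Tob2 had their highest mean of that time with APAP. For Tob2 the arrays overlapped, and the difference of APAP from AMAP was 0.01 (-0.16 to 0.19).

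Tob2, the paralogue of Tob1, passed the test in no comparison. At 2 h it had 7.92, 7.96 and 7.91 with APAP, 7.89, 7.94 and 7.79 with AMAP, and 7.78, 7.80 and 7.63 in control cultures. The 3 APAP arrays lay above the 3 control arrays, with a log2 difference of 0.20 (95% interval 0.02 to 0.37, limma adjusted p = 0.4547). At 6 h the difference of APAP was -0.01 from control (-0.18 to 0.17) and 0.00 from AMAP (-0.17 to 0.17), and at 24 h it was 0.09 from control (-0.08 to 0.26). Tob2 thus overlapped between all 3 groups at 6 h.

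The order of the 9 group means differed between members. For Btg2 it ran from APAP at 24 h (10.86 ± 0.21, SD, n = 3), 2 h (10.76 ± 0.18) and 6 h (10.52 ± 0.12) to AMAP at 24 h (9.64 ± 0.12), 2 h (9.61 ± 0.27) and 6 h (9.55 ± 0.08), followed by control at 6 h (9.52 ± 0.10), 24 h (9.50 ± 0.06) and 2 h (9.38 ± 0.18). The step of 0.87 between the lowest APAP and the highest AMAP group was the only one between neighbours whose arrays did not overlap. For Tob1 the order began with APAP at 2 h (12.13 ± 0.11), AMAP at 2 h (11.89 ± 0.06), APAP at 6 h (11.88 ± 0.10), APAP at 24 h (11.84 ± 0.15) and control at 2 h (11.72 ± 0.09). It ended with AMAP at 6 h (11.62 ± 0.05) and 24 h (11.49 ± 0.09) and control at 6 h (11.46 ± 0.09) and 24 h (11.37 ± 0.03), and neighbours overlapped except at the steps after APAP at 2 h, after AMAP at 6 h and after control at 6 h. For Btg1 (group means 12.16 to 12.46) and Tob2 (7.58 to 7.93) every pair of neighbours overlapped.

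Without any compound, Tob1 was the member that passed a test between times. In control cultures it fell to 0.78-fold at 24 h against 2 h (95% interval 0.70 to 0.88, limma adjusted p = 0.0315), and the 3 differences within array numbers were -0.28, -0.38 and -0.40. The numbers did not pair these arrays by the criterion given below. That all 3 were negative follows from the 24 h arrays lying below the 2 h arrays. Of the 4 members it was the only 1 called in this comparison, in which 0.627% of all genes were called lower. The call was lost without control array 30, 31 or 32 at 24 h (adjusted p = 0.157, 0.0736 and 0.0966) and without control array 31 or 32 at 2 h (adjusted p = 0.150 and 0.156). Btg2 in control cultures differed by 0.12 between 24 h and 2 h (-0.13 to 0.37), Btg1 by -0.13 (-0.30 to 0.04) and Tob2 by -0.11 (-0.28 to 0.06). Tob1 means with APAP and AMAP were likewise lower at 24 h than at 2 h, a difference that was not tested. Between 6 h and 2 h and between 24 h and 6 h, limma called 0 members in control cultures (1 and 0 at an unadjusted p under 0.05), against 0.707 and 0.015% of all genes.

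Further loci of the family gave dim signals. Btg4, an oocyte gene, had a mean of 4.34 over all arrays, and the X-linked copies Btg1b and Btg1c had 3.90 and 5.23. All 3 lay below the array median on all 27 arrays, and detection calls were not analysed. None was called by limma in any comparison, and at 2 h Btg1c had a log2 difference of 0.25 between APAP and control with an adjusted p of 0.3356.

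The genes whose values ran most like those of each member were found by Pearson's r over the 27 arrays among 15218 genes with a group mean of at least 6. For Btg2 they were the thiamine transporter Slc19a2 (r = 0.946), the BH3-only gene Pmaip1 (0.930) and the AP-1 subunit Jun (0.930). Since Btg2 splits the arrays into 9 with APAP and 18 without, those values rest mainly on that split, and over the 18 arrays without APAP r was 0.519, 0.515 and 0.429. Over the 9 APAP arrays it was 0.735, 0.453 and 0.678. For Tob1 they were the sestrin Sesn2 (r = 0.927), Gadd45g (0.897) and the zinc finger gene Zfand2a (0.875), and over the 18 arrays without APAP r was 0.869, 0.801 and 0.867.

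For Btg1 the most similar genes were Ints6l (r = 0.831), the growth factor Vegfa (0.823) and the amino acid transporter Slc1a4 (0.817), and for Tob2 they were Tomm34 (0.763), the Polycomb gene Cbx8 (0.762) and Zfyve21 (0.737). Between members, r over the 27 arrays was highest for Btg2 with Tob1 (0.707) and lowest for Btg1 with Btg2 (0.109). After subtraction of group means, r was 0.611 for Btg2 with Tob1 and 0.521 for Btg1 with Btg2. These coefficients describe arrays that share groups, times and array numbers.

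In the deadenylation machinery that BTG and TOB proteins act through, Nanos1 was the gene called at more than 1 time. Of 17 measured genes of this list, 0 were called by limma with APAP at 2 h (2 at an unadjusted p under 0.05), 1 rose at 6 h, and 2 rose and 2 fell at 24 h, against 0.682, 2.5 and 9.33% of all genes called in either direction. The list medians were -0.04, -0.03 and -0.07 on the log2 scale. Nanos1, an RNA-binding protein that recruits CCR4-NOT, rose by 0.82 ± 0.12 (SE) at 6 h (adjusted p = 1.78e-04) and by 0.50 ± 0.12 at 24 h. At 24 h the poly(A) ribonuclease gene Parn (-0.32 ± 0.08) and the CCR4-NOT subunit gene Cnot9 (-0.33 ± 0.10) fell, and Pan2, a deadenylase subunit named after its value was seen, rose by 0.25 ± 0.07. Both Nanos1 calls held without each of the 6 arrays compared, but the call at 6 h was lost without number 30 (adjusted p = 0.0602) and the call at 24 h without number 30 or 32 (adjusted p = 0.168 and 0.119). The call of Parn held in 4 of the 6 single-array cases and those of Cnot9 and Pan2 in 2 each, and all 3 were lost without any 1 of the 3 numbers. The difference of Parn was -0.20 without APAP array 32 and that of Cnot9 was -0.21 without APAP array 31. Between APAP and AMAP, 0, 1 and 1 of the 17 were called at 2, 6 and 24 h, against 0.261, 0.707 and 4.65% of all genes in either direction. Nanos1 was higher with APAP than with AMAP at 6 h (0.61 ± 0.12) and Parn lower at 24 h (-0.37 ± 0.08). This Nanos1 call held in 3 of 6 single-array cases and was lost without number 30 or 32 (limma adjusted p = 0.693 and 0.118). It was also lost in the 6 arrays fitted alone (adjusted p = 0.153). The Parn call between isomers held in 5 of 6 single-array cases and was lost without any 1 of the 3 numbers. With AMAP against control 0 of 17 were called at any time, and 0 passed an unadjusted p under 0.05. Over all genes only 0.181, 0.456 and 0.727% were called with AMAP in either direction at 2, 6 and 24 h.

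Of 12 measured genes for other binding partners and regulators, 0 were called with APAP at 2 h (2 at an unadjusted p under 0.05), 0 were called at 6 h (2 likewise), and at 24 h 1 rose and 3 fell, against 0.682, 2.5 and 9.33% of all genes called in either direction. The list median at 24 h was -0.06. Prmt1, the arginine methyltransferase that Btg1 and Btg2 bind, fell by 0.54 on the log2 scale (SE 0.10, limma adjusted p = 0.0014). The BMP signal transducers Smad1 (-0.46 ± 0.09) and Smad5 (-0.24 ± 0.07), which TOB proteins bind, fell too, and the mRNA-binding gene Cpeb4 (0.31 ± 0.10), named after its value was seen, rose. The calls of Prmt1 and Smad1 held without each of the 6 arrays compared, but that of Prmt1 was lost without number 30 or 31 (adjusted p = 0.0765 and 0.0610) and that of Smad1 without number 31 (adjusted p = 0.0533). Those of Smad5 and Cpeb4 held in 1 of the 6 single-array cases each and were lost without any 1 of the 3 numbers. Smad5 was also lower with APAP than with AMAP at 24 h (-0.23 ± 0.07), a call that held in 0 of 6 single-array cases. It was also lost without any 1 of the 3 numbers. Between the isomers 0, 0 and 1 of the 12 were called at 2, 6 and 24 h, against 0.261, 0.707 and 4.65% of all genes in either direction. With AMAP 0 of the 12 were called by limma at any time, with 1, 2 and 2 at an unadjusted p under 0.05 at 2, 6 and 24 h. The share of all genes called with AMAP in either direction was 0.181, 0.456 and 0.727% at these times.

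**Figure D4:**
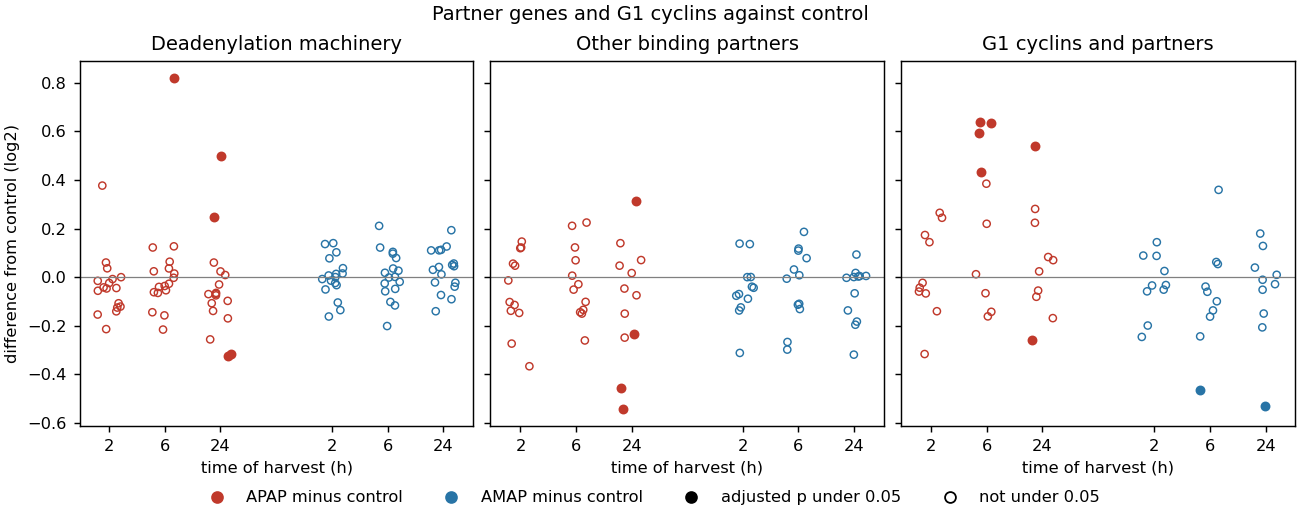
Log2 differences from control (y axis) by time (x axis) for each measured gene of the deadenylation machinery, of other binding partners, and of G1 cyclins and partners, for APAP and AMAP. Filled points have an adjusted p under 0.05: with APAP these are 5 points of the first list, 4 of the second and 6 of the third, and with AMAP 2 of the third.

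G1 cyclins and their partners drive entry into DNA synthesis, and BTG and TOB proteins are known to lower cyclin D1. Of 10 genes measured, 0 were called with APAP at 2 h by limma (2 at an unadjusted p under 0.05), 4 rose at 6 h, and 1 rose and 1 fell at 24 h, against 0.682, 2.5 and 9.33% of all genes called in either direction. The list medians were -0.03, 0.30 and 0.05. At 6 h E2f1 (0.43 ± 0.08), Ccne1 (0.59 ± 0.12) and Ccnd2 (0.64 ± 0.15) rose, values with the SE, as did Ccne2 (0.63 ± 0.16), named after its value was seen. At 24 h the retinoblastoma gene Rb1 rose by 0.54 ± 0.12 and Cdk4 fell by 0.26. With AMAP, 0, 1 and 1 of the 10 were called at 2, 6 and 24 h, against 0.181, 0.456 and 0.727% of all genes. It was Ccnd1, cyclin D1, which fell by 0.46 at 6 h (adjusted p = 0.0288) and by 0.53 at 24 h (adjusted p = 0.0075). Between APAP and AMAP, 0 of the 10 were called at 2 h (0 at an unadjusted p under 0.05), 4 were higher with APAP at 6 h, and 1 was higher and 1 lower at 24 h, against 0.261, 0.707 and 4.65% of all genes in either direction. Those at 6 h were Ccne1 (0.69 ± 0.12), E2f1 (0.37 ± 0.08), the kinase gene Cdk2 (0.36 ± 0.08) and, named after its value was seen, Ccne2 (0.67 ± 0.16). At 24 h Ccnd1 was higher (0.36 ± 0.10, adjusted p = 0.0322) and Cdk4 lower (-0.21 ± 0.06, adjusted p = 0.0464) with APAP than with AMAP. Against control at 24 h, Ccnd1 was lower with AMAP (-0.53) and was not called with APAP. The calls of E2f1, Ccne1 and Rb1 against control held without each of the 6 arrays compared, but all 3 were lost without number 30 (adjusted p = 0.238, 0.212 and 0.0535) and without number 31 (adjusted p = 0.0726, 0.0885 and 0.0760). The call of Cdk4 against control held in 5 of the 6 single-array cases, that of Ccnd2 in 4 and that of Ccne2 in 2. Those of Ccnd2 and Ccne2 were lost without any 1 of the 3 numbers, and that of Cdk4 was kept without 1 of them. For Ccnd1 the call with AMAP held in 1 of 6 cases at 6 h and in 3 at 24 h, and the call between APAP and AMAP in 2, and all 3 were lost without any 1 of the 3 numbers. Between APAP and AMAP, the Ccne1 call held in 6 of 6 single-array cases, those of Ccne2, Cdk2 and Cdk4 in 2 each and that of E2f1 in 1. The Ccne1 call between isomers was lost without number 30 or 31 (limma adjusted p = 0.298 and 0.120) and in the 6 arrays fitted alone (adjusted p = 0.0691). The Ccne2 call between isomers was kept without 1 of the 3 numbers, and those of Cdk2, Cdk4 and E2f1 between isomers were lost without any 1 of them.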

How the data were processed

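Total RNA of TAMH cells was hybridised to Affymetrix Mouse Gene 1.0 ST arrays, 27 in all, per the labels' protocols. The deposited log2 values are RMA values from Affymetrix Expression Console 1.1, per the submitters' processing notes; the log base was read from their range, and the summary level is not given in the sources used here. The number of arrays limits the precision.

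Of 35557 probe sets, 21789 carry 1 gene symbol, 1621 several and 12147 none. Single-symbol probe sets gave 19938 genes, the highest mean being used for 999 symbols with several. Values were not normalized further. A model with 9 group means was fitted with limma 3.58.1 in R 4.3.3 (18 residual degrees of freedom), and genes were called at a two-sided Benjamini-Hochberg adjusted p under 0.05 over all genes. The fit was checked on simulated data with independent noise on each array. That check does not cover deviations shared by arrays of the same number. Members, lists and tests were chosen with earlier results of these data known. Named genes were all members, the 3 most similar genes each, and up to 3 called genes per list and comparison with the smallest p. Of 18, 16 and 10 listed partner and cyclin genes, 17, 12 and 10 were matched.

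The array numbers were taken to pair arrays where deviations from group means correlated above 0.1 for each number, which held in 5 of 9 treatment comparisons. Among arrays of other groups, the one with the most similar deviations carried the same number for 25 of 27 arrays. Limma's consensus correlation of arrays with the same number, estimated over all genes, was 0.0408. Alternatives covered the number as a block, arrays fitted, scaling, variance prior, array weights, dim genes, probe set choice, a 1.5-fold minimum and leaving out arrays. Sequences are from RefSeq (GRCm38.p6).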

Additional observations from a re-analysis of the deposited data

How the results depend on the processing

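The Btg2 calls with APAP against control and against AMAP held under all 18 alternatives run for each comparison, with log2 differences between 0.87 and 1.49. The replicate block changed no call of a member between treatments. In control cultures it added Tob1 at 6 h against 2 h (1 member called, log2 difference -0.27, limma adjusted p = 0.0492). There the numbers did not pair the arrays by the criterion above. Elsewhere the number of members called moved through Tob1. With the arrays compared fitted alone it was 1 for APAP against control at 2 h, 1 for APAP against AMAP at 24 h and 0 for control cultures at 24 h against 2 h. With a 1.5-fold minimum it was 1 for APAP against control at 2, 6 and 24 h, 1 for APAP against AMAP at 24 h and 0 for control cultures at 24 h against 2 h, since Tob1 differed by less. Leaving out 1 array, or all arrays of 1 number, gave 1 to 2 members for APAP against control at 2 h and 6 h and against AMAP at 24 h, and 0 to 1 for control cultures at 24 h against 2 h. Fewer arrays were fitted there, and the cause was otherwise not tested. With array weights Btg1 was called lower with APAP than with AMAP at 24 h (-0.26, adjusted p = 0.0368). The same settings, applied to 26 calls of partner and cyclin genes after their values were seen, reversed none; 8 of the calls held without each single array, 0 held without every one of the 3 numbers, and 4 held under every other setting.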
